A study of Homo sapiens with 15 samples.

Results

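The 9 genes PTGS2, TNFAIP3, CXCR4, AKAP12, BHLHE40, ANXA1, STC1, F2RL1 and SEMA4B were read out of 62700 gene rows in bulk RNA-seq of 143B, an established human osteosarcoma cell line. They were chosen by their fold changes against shCtrl, which had opposite signs with the shRNAs shPDK1#1 and shPDK1#2, both directed at PDK1. Their changes with either shRNA, and between the shRNAs, are therefore given as a description and carry no test. That rule on signs used no value of OSCs against non-OSCs, and this comparison was tested. The 9 genes were picked with earlier results of these data known, so it is not established that their choice was independent of it. In all, 14 genes passed an adjusted p of 0.05 with both shRNAs in opposite directions, and no reason is given for leaving out the others.

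PDK1 (pyruvate dehydrogenase kinase 1) phosphorylates and inhibits the pyruvate dehydrogenase complex, which feeds pyruvate into the TCA cycle. The data came from 15 libraries, with 3 in each of 5 groups, in 2 tables of RSEM expected counts. One table held OSCs and non-OSCs, both 143B cells labelled as wild type. OSCs were grown as floating spheres in serum-free medium with B27, EGF and bFGF. Non-OSCs were grown attached, and the methods of the study keep attached cells in DMEM with fetal bovine serum and sodium pyruvate. Medium and attachment thus changed together between non-OSCs and OSCs, and their parts cannot be told apart. The other table held 143B cells grown under spheroid conditions after lentiviral infection with a control shRNA (shCtrl), shPDK1#1 or shPDK1#2. Both knockdown groups and their control thus shared infection and sphere culture, and all 15 libraries shared 1 cell line. Nothing in the labels states that replicates came from separate cultures, so p-values measure only the spread between these libraries. In bulk RNA, fewer cells that express a gene and less RNA per cell cannot be told apart.

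The total count of a library ranged from 7992505 to 10495047 in the OSC table and from 8073051 to 11256530 in the knockdown table. The values below are CPM, counts scaled to 1000000 per library after edgeR's TMM normalization within each table. The tables were normalized separately, and no test was made across them. The PDK1 mRNA itself stood at 46.7, 44.7 and 44.4 CPM in the shCtrl libraries, at 29.0, 27.8 and 27.3 CPM in those of shPDK1#1 and at 18.3, 21.5 and 19.6 CPM in those of shPDK1#2. The targeted mRNA was thus lower in every knockdown library than in every control library, at 62.0% and 43.7% of the shCtrl mean. The remaining level was lower with shPDK1#2 than with shPDK1#1, by a log2 fold change of -0.50 ± 0.09 (SE), with an adjusted p of 0.000237 in edgeR's quasi-likelihood test. Of the markers of the labelled osteosarcoma origin, RUNX2 was at 14.2 to 38.1 CPM and COL1A1, SPARC and VIM were at 385.5 CPM or more in every library. SP7 had at most 1 count in any library and IBSP had 0, and COL1A2, BGLAP and ALPL were at most at 1.66, 0.661 and 3.03 CPM. Leukocyte, endothelial and epithelial markers summed to at most 2.75, 1.88 and 4.51 CPM in any library, and their part in the results was not tested.

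The 9 genes belong to several signalling systems. PTGS2 encodes cyclooxygenase 2, the inducible enzyme that turns arachidonic acid into the precursor of all prostaglandins. TNFAIP3 encodes A20, a ubiquitin-editing enzyme that is induced by NF-kB and restrains it. CXCR4 is the receptor of the chemokine CXCL12 and guides migrating cells, and F2RL1 (PAR2) is a receptor opened by proteases such as trypsin. SEMA4B is a membrane semaphorin, a family of guidance cues that signal through plexins. AKAP12 (gravin) holds protein kinase A and other kinases at the cell cortex, and BHLHE40 (DEC1) is a basic helix-loop-helix repressor that binds E-boxes and feeds into the circadian clock. STC1 is a secreted glycoprotein hormone that responds to hypoxia, and ANXA1 is a calcium-dependent phospholipid-binding protein with anti-inflammatory actions. In osteosarcoma, as in other tumours, cells grown as spheres are used to enrich for stem-like cells.

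Positions are those of GENCODE 44 on GRCh38. PTGS2 (ENSG00000073756.13) spans chr1:186671791-186680922 on the minus strand with 10 exons in its canonical transcript. TNFAIP3 (ENSG00000118503.18, chr6:137867214-137883314, plus strand, 9 exons) and AKAP12 (ENSG00000131016.17, chr6:151239967-151358559, plus strand, 5 exons) share chromosome 6. CXCR4 (ENSG00000121966.8) lies at chr2:136114349-136119177 on the minus strand with 2 exons, and BHLHE40 (ENSG00000134107.5) at chr3:4979437-4985323 on the plus strand with 5 exons. ANXA1 (ENSG00000135046.14) lies at chr9:73151865-73170393 on the plus strand with 13 exons. F2RL1 (ENSG00000164251.5) lies at chr5:76818933-76835315 on the plus strand with 2 exons, and SEMA4B (ENSG00000185033.15) at chr15:90160604-90229679 on the plus strand with 14 exons. Exons of an antisense gene covered 3.99% of the exon bases of PTGS2 (PACERR), 1.47% of TNFAIP3 (WAKMAR2), 12.8% of BHLHE40 (BHLHE40-AS1) and 10.4% of F2RL1 (ENSG00000289924). No source states that strand was used in counting, so reads from these stretches cannot be told apart by gene.

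Promoter sequence of 8 of the 9 genes was held in the RefSeq table of GRCh38.p14, and STC1 had no entry. The 250 bases before the start are shown for 5 windows that differ in the motifs they hold. These are PTGS2 (chr1:186680424-186680673, minus strand, inside the longer GENCODE gene model), TNFAIP3 (chr6:137867009-137867258, plus strand), BHLHE40 (chr3:4979187-4979436, plus strand), the first of 3 AKAP12 windows (chr6:151239717-151239966, plus strand) and ANXA1 (chr9:73151615-73151864, plus strand). Capitals mark matches, on either strand, to the E-box CACGTG, the core TGACG of the cAMP response element, the TATA box TATAAA or the NF-kB motif GGGRNNYYCC. In these motifs R is A or G, Y is C or T, and N is any base. Only full matches were counted, so the absence of a match does not mean that a window has no site for the factor.
PTGS2: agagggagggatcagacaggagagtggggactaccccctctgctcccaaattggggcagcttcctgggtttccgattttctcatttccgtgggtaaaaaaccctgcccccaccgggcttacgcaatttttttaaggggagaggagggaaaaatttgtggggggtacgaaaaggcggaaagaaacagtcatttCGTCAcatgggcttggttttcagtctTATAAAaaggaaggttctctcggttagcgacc
TNFAIP3: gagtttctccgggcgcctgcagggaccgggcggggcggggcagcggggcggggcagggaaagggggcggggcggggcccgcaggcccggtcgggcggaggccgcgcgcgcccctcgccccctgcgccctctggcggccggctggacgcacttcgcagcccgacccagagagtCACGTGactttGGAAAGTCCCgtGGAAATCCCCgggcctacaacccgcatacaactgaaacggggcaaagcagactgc
BHLHE40: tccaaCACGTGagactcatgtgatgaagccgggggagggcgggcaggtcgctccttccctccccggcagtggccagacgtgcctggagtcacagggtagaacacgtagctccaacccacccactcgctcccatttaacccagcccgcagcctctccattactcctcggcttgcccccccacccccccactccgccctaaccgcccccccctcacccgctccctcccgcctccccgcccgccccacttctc
AKAP12: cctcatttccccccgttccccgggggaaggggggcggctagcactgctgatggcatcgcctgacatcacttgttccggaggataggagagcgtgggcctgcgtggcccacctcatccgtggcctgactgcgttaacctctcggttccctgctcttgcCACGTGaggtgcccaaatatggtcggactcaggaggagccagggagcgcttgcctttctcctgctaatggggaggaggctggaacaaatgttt
ANXA1: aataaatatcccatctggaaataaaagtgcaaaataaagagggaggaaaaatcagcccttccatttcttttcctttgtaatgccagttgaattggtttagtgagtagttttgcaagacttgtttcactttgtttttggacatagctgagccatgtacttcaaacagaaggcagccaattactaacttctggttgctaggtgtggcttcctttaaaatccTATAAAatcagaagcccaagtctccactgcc

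The sequences show an E-box from base -78 to -73 before the start of TNFAIP3, followed by NF-kB motif matches that begin at -67 and -55. The E-box of BHLHE40 lies at -245 to -240, and each of the 3 AKAP12 windows holds one, at -93, -17 and -11. CACGTG was found in 5 of the 14 windows of these genes, and in 6.34% of all 35116 windows in the table. Every CACGTG also holds the hypoxia element core ACGTG, which occurred in 5 of the 14 windows, of the same 3 genes, and in 18.5% of all windows. TATAAA began at base -32 in PTGS2 and -31 in ANXA1, the gene with the reverse order of the groups, and also in 1 CXCR4 window. TATAAA was present in 3 of the 14 windows and in 10.7% of all windows. The NF-kB motif matched in 1 window each of TNFAIP3, AKAP12 and SEMA4B, and in 9.96% of all windows. TGACG matched in 2 of the 14 windows, 1 each of PTGS2 and CXCR4, and in 21.2% of all windows. CCAAT matched in 5 of the 14 windows, each of a different gene, and in 32.0% of all windows. The full cAMP response element TGACGTCA and the AP-1 motif TGANTCA had no match in these windows, against 1.65% and 6.57% of all windows. No motif was common to all 8 genes.

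**Figure D1:**
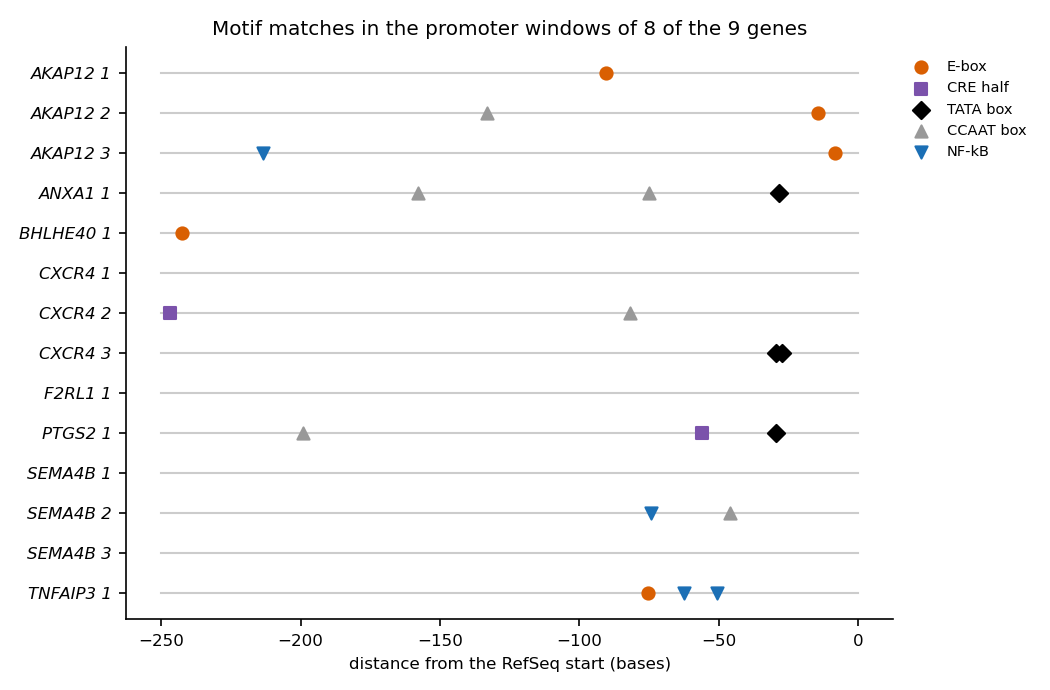
Positions of motif matches in the 14 promoter windows of 8 genes, in bases from the RefSeq start (x axis), with 1 line per window and windows of a gene numbered along the chromosome. The E-box symbol appears in TNFAIP3, BHLHE40 and all 3 AKAP12 windows, and no symbol is present in every gene.

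The first question was how each gene stood in the individual knockdown libraries. In all 9 genes the 3 groups were fully separate, with every shCtrl library between the libraries of the shRNAs. In 8 genes the order was shPDK1#1 above shCtrl above shPDK1#2, and in ANXA1 it was the reverse. Of all 14597 genes tested, 0.856% were separated in this way in either order and 0.534% in the order of the 8 genes, and the choice of the 9 genes fixed their own count. Levels per kilobase of exon with shCtrl ran from 178 CPM per kilobase for F2RL1 and 120.0 for AKAP12 down to 4.81 for TNFAIP3 and 3.23 for CXCR4. Between these lay BHLHE40 at 70.9, ANXA1 at 66.9, STC1 at 65.2, PTGS2 at 30.4 and SEMA4B at 29.5 CPM per kilobase. In that order the libraries of ANXA1 overlapped those of STC1, and those of PTGS2 overlapped those of SEMA4B.

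**Figure D2:**
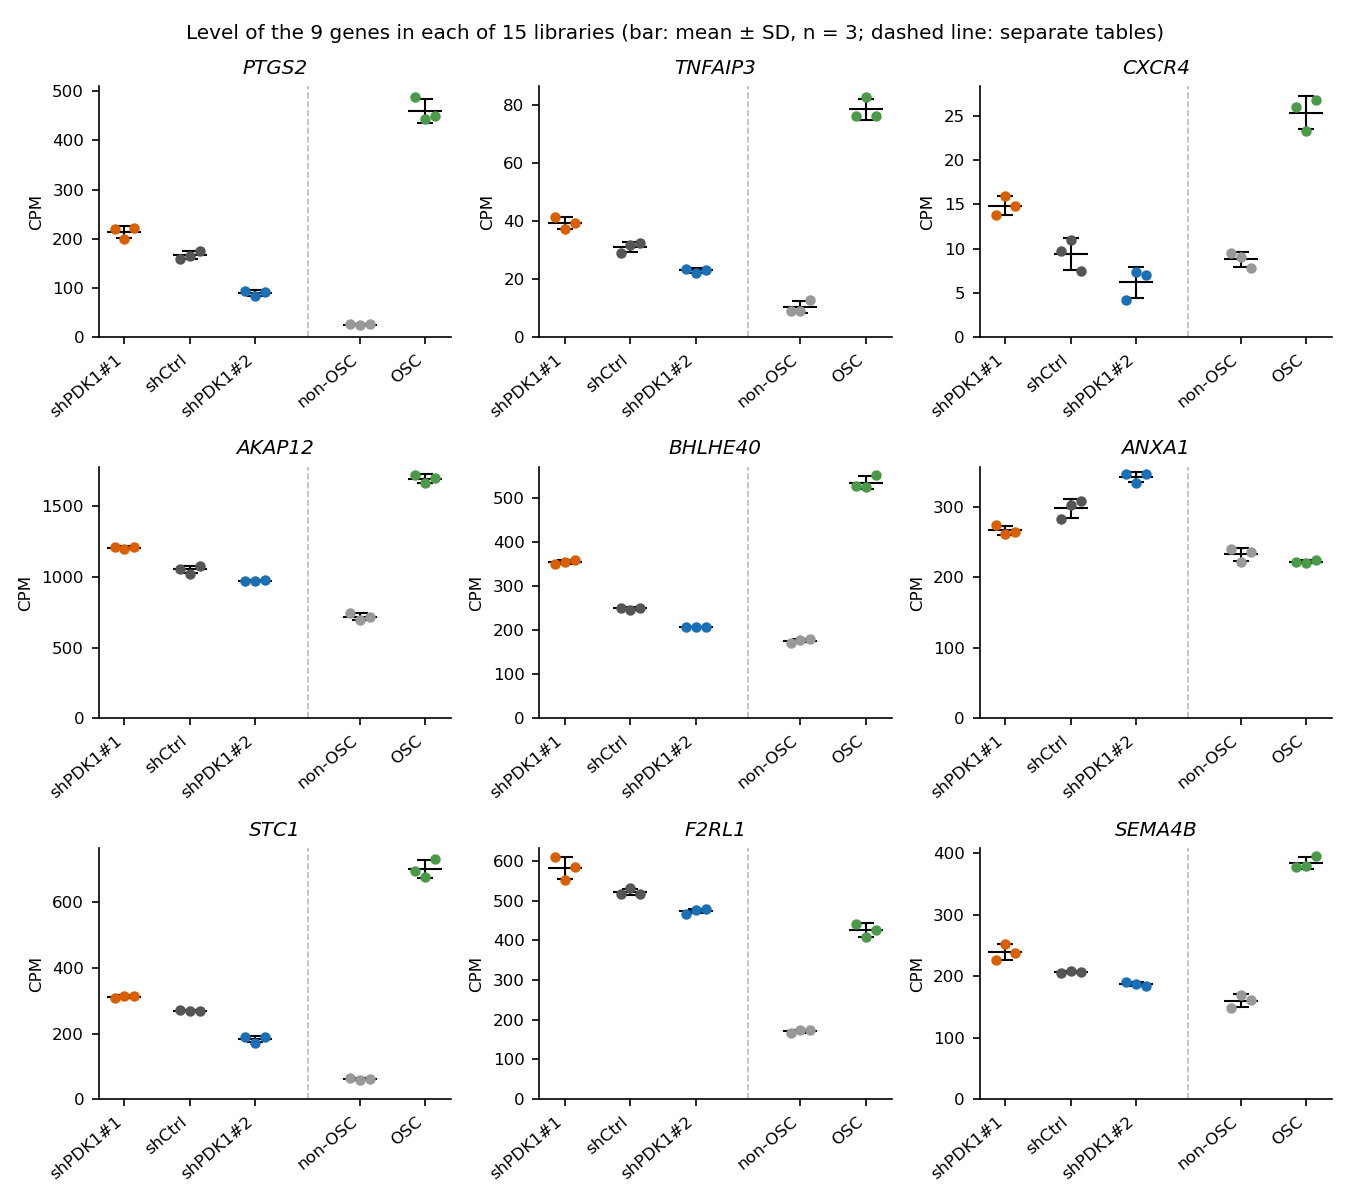
CPM (y axis, from 0) of each of the 9 genes in all 15 libraries by group (x axis), with points for libraries and bars for the mean ± SD of 3 libraries, and a dashed line between the separately normalized tables. In 8 panels the points step down from shPDK1#1 through shCtrl to shPDK1#2, in ANXA1 they step up, and OSCs lie above non-OSCs in every panel but that of ANXA1.

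Among the enzymes, PTGS2 had the wider spread of levels. It was at 221, 200.5 and 222 CPM with shPDK1#1, 159.8, 164 and 176 CPM with shCtrl and 94.5, 83.7 and 92.7 CPM with shPDK1#2. The highest shPDK1#2 library was thus well below the lowest shCtrl library, whereas the gap between shCtrl and shPDK1#1 was smaller. Against shCtrl the log2 fold change of PTGS2 was 0.37 ± 0.05 (SE) with shPDK1#1 and -0.88 ± 0.06 with shPDK1#2. Between the shRNAs it was -1.25 ± 0.06, so cyclooxygenase 2 mRNA with shPDK1#2 stood at 42.1% of its level with shPDK1#1. TNFAIP3 was at 41.4, 37.3 and 39.1 CPM with shPDK1#1, 28.9, 31.6 and 32.4 CPM with shCtrl and 23.6, 22.1 and 23.2 CPM with shPDK1#2. Its steps to either side were of similar size, with log2 fold changes of 0.34 ± 0.08 and -0.43 ± 0.09, and of -0.77 ± 0.09 between the shRNAs.

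Of the receptors, CXCR4 was low and F2RL1 was abundant. CXCR4 was at 13.8, 15.9 and 14.8 CPM with shPDK1#1, 9.76, 10.9 and 7.45 CPM with shCtrl and 4.19, 7.38 and 6.98 CPM with shPDK1#2. These values rest on 45 to 166 counts per library, and the gap between the lowest shCtrl and the highest shPDK1#2 library was small beside the spread within either group. The log2 fold change of CXCR4 was 0.65 ± 0.17 with shPDK1#1 and -0.62 ± 0.19 with shPDK1#2, with the largest standard errors of the 9 genes. F2RL1 was at 609, 553 and 584 CPM with shPDK1#1, 517, 531 and 516 CPM with shCtrl and 467, 475 and 478 CPM with shPDK1#2. The PAR2 transcript thus differed little, at 112% and 90.8% of the shCtrl mean, and the log2 fold change between the shRNAs was -0.30 ± 0.04. The membrane ligand SEMA4B was at 227, 252 and 238 CPM with shPDK1#1, 205, 208 and 207 CPM with shCtrl and 191, 187 and 184 CPM with shPDK1#2. Its control libraries lay close together, and its means with shPDK1#1 and shPDK1#2 were 116% and 90.7% of theirs. Between the shRNAs, the log2 fold change of SEMA4B was -0.35 ± 0.04.

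Of the intracellular regulators, BHLHE40 had closely spaced replicates. It was at 351, 355 and 359 CPM with shPDK1#1, 250.3, 246 and 251 CPM with shCtrl and 207, 207 and 207 CPM with shPDK1#2. Unlike PTGS2, this clock-linked repressor stood further from shCtrl with shPDK1#1 (log2 fold change 0.51 ± 0.04) than with shPDK1#2 (-0.27 ± 0.04), and by -0.78 ± 0.04 between them. AKAP12, the kinase anchor, was at 1213, 1196 and 1213 CPM with shPDK1#1, 1059, 1022 and 1077 CPM with shCtrl and 969, 972 and 981 CPM with shPDK1#2. With 8665 to 13576 counts per library it was the most deeply counted of the 9, and its differences were among the smallest, at log2 fold changes of 0.20 ± 0.03, -0.11 ± 0.03 and, between the shRNAs, -0.31 ± 0.03.

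Of the secreted and membrane-binding proteins, STC1 followed the 8-gene order and ANXA1 ran against it. STC1 (ENSG00000159167.12, minus strand of chromosome 8 from 23841929 to 23854806, 4 exons) was at 309, 313 and 315 CPM with shPDK1#1, 272, 269 and 268 CPM with shCtrl and 189, 173 and 188 CPM with shPDK1#2. The hormone's transcript stood further below shCtrl with shPDK1#2 (log2 fold change -0.56 ± 0.04) than above it with shPDK1#1 (0.21 ± 0.04). Between the shRNAs it was -0.77 ± 0.04. ANXA1 was at 274, 262 and 265 CPM with shPDK1#1, 283, 302 and 308 CPM with shCtrl and 347, 333 and 347 CPM with shPDK1#2. Of the 9 genes, it was the one lower with shPDK1#1 and higher with shPDK1#2, with log2 fold changes of -0.16 ± 0.04, 0.20 ± 0.04 and, between the shRNAs, 0.36 ± 0.04.

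**Figure D3:**
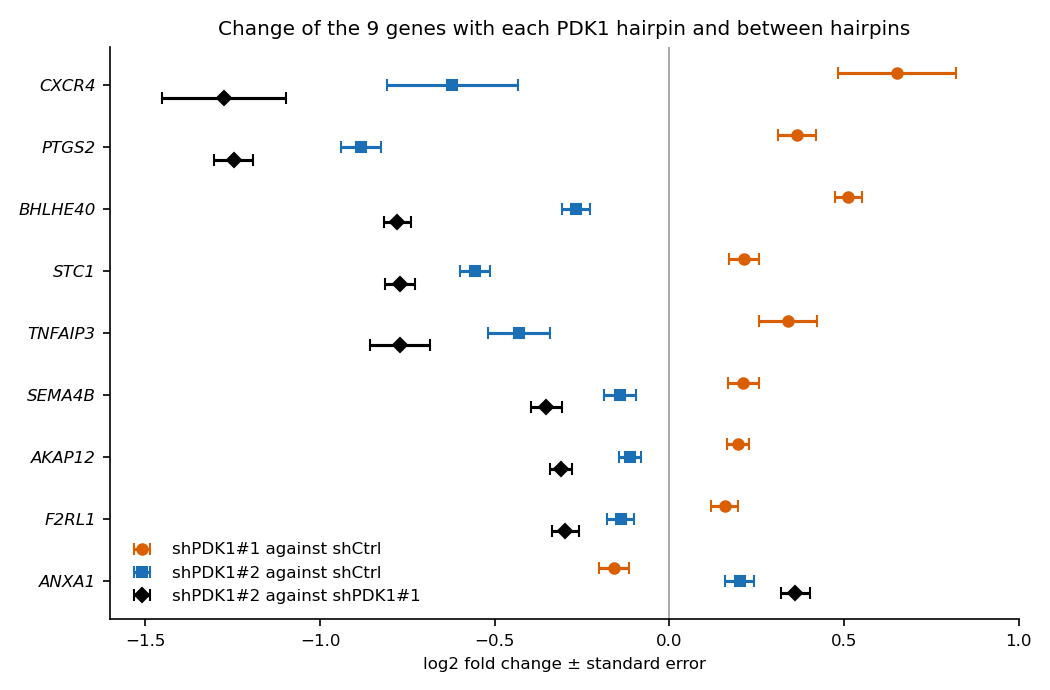
Log2 fold change (x axis) of each gene (y axis) with shPDK1#1 and shPDK1#2 against shCtrl and with shPDK1#2 against shPDK1#1, where bars show the standard error. CXCR4 and PTGS2 lie furthest to the left in the contrast between the shRNAs, at -1.27 and -1.25, and only ANXA1 lies to the right, at 0.36.

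Both shRNA comparisons used the same 3 shCtrl libraries, so an error in those libraries would shift both. The fold change of shPDK1#2 against shPDK1#1 is a ratio of the other 6 libraries, although the shCtrl libraries enter its error through the common fit and the choice of the genes fixes its direction. At an adjusted p of 0.05, 3.06% of all genes tested differed with shPDK1#1, 26.1% with shPDK1#2 and 16.3% between the shRNAs. With both shRNAs, 2.49% passed in the same direction. A total of 14 genes (0.0959% of those tested) passed that threshold with both shRNAs in opposite directions. The choice placed the 9 genes among them, and nothing is read from their count. Of these 14, 13 were higher with shPDK1#1 and lower with shPDK1#2 (0.0891%), and ANXA1 alone was the reverse (0.00685%). Ranked by the smaller of both absolute log2 fold changes, the 9 genes ran from 0.62 for CXCR4 to 0.14 for F2RL1 and 0.11 for AKAP12 at the bottom. The threshold was on the adjusted p rather than on size, and no gene called in opposite directions lay below AKAP12.

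The number of the 9 genes past the threshold in opposite directions depended on single libraries, which is given as a limit of the choice and not as a test of it. It was 6 without shCtrl replicate 1 (TNFAIP3, CXCR4 and F2RL1 lost), 5 without shCtrl replicate 2 (TNFAIP3, CXCR4, ANXA1 and SEMA4B lost) and 4 without shCtrl replicate 3. In that last case PTGS2, TNFAIP3, BHLHE40 and STC1 were left. Without shPDK1#1 replicate 3 it was 5, with TNFAIP3, CXCR4, ANXA1 and F2RL1 lost, and without any other single library it was 7 or 8. The log2 fold change of CXCR4 with shPDK1#2 was -0.40 without shPDK1#2 replicate 1, its lowest library, and -0.77 without shPDK1#2 replicate 2.

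Across the 9 knockdown libraries the 8 genes of the common order varied together, as their choice fixes in large part. Pearson's r of log2 CPM between pairs of them ranged from 0.827 to 0.993 (median 0.911 over 28 pairs), as a description. These libraries come from the groups whose order the choice fixed, so r includes the differences between groups. Of other genes with a mean of at least 10 CPM, those close to the average of the 8 included FAM20B (r = 0.985), KDM5B (0.982), EXTL3 (0.976) and PFKFB3 (0.973). PFKFB3, a regulatory enzyme of glycolysis, was at 367, 375 and 368 CPM with shPDK1#1, 329, 316 and 334 CPM with shCtrl and 247, 245 and 257 CPM with shPDK1#2. FAM20B and EXTL3 act in the synthesis of glycosaminoglycan chains, KDM5B is a histone demethylase, and FAM20B, EXTL3 and KDM5B differed from shCtrl by at most 0.16 in absolute log2 fold change with either shRNA. The genes closest to ANXA1 over the same libraries were ARHGDIB (r = 0.970), CDC45 (0.957), SUV39H2 (0.956), CDCA7 (0.943) and ZSCAN12 (0.941). None of these passed the threshold with shPDK1#1 (adjusted p from 0.188 to 0.716 in edgeR), and CDC45, CDCA7 and ZSCAN12 overlapped shCtrl there. With shPDK1#2 all of them but SUV39H2 (adjusted p = 0.0941) were higher and passed it. CDC45 is part of the replicative helicase, and it stood at 21.8 ± 1.08 CPM with shPDK1#1, 23.3 ± 1.87 with shCtrl and 28.0 ± 1.32 with shPDK1#2 (SD, n = 3).

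The comparison of OSCs with non-OSCs asked how the same genes stood between sphere and attached culture, each in its own medium. The rule on signs did not use these libraries. Of the 9 genes, 8 were higher in OSCs (adjusted p under 0.05 in edgeR's quasi-likelihood test). Of all genes tested 63.9% differed, with 32.4% of the 14288 higher and 31.5% lower. None of the 9 was lower in OSCs, also at an unadjusted p of 0.05 or with DESeq2 (0 genes in each). The median log2 fold change of the 9 genes was 1.52, beside -0.01 for all genes tested. For the same 8 genes the OSC and non-OSC libraries did not overlap, as was the case for 66.9% of all genes. With 3 libraries against 3, the exact two-sided permutation test of a single gene cannot go below p = 0.1, which each of the 8 reached. The calls were the same 8 in all 11 alternative fits, which included leaving out each library in turn.

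PTGS2 and STC1 differed most. PTGS2 was at 26.1, 24.1 and 26.7 CPM in non-OSCs and 487, 444 and 449 CPM in OSCs, a 17.9-fold difference of the means (log2 fold change 4.16 ± 0.06, adjusted p = 3.25e-22). Of the genes tested, 99.7% had a lower log2 fold change than this enzyme of prostaglandin synthesis. STC1 was at 63.7, 57.1 and 60.4 CPM in non-OSCs and 696, 677 and 731 CPM in OSCs, an 11.6-fold difference (log2 fold change 3.54 ± 0.05, adjusted p = 3.25e-22). TNFAIP3 was at 9.16, 9.08 and 12.7 CPM in non-OSCs and 76.1, 82.7 and 76.1 CPM in OSCs, so A20 mRNA was 7.60-fold higher in spheres (log2 fold change 2.93 ± 0.11, adjusted p = 8.29e-16).

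The other 5 genes that rose did so by less than TNFAIP3. BHLHE40 was at 171, 177 and 179 CPM in non-OSCs and 526, 526 and 551 CPM in OSCs (log2 fold change 1.60 ± 0.04, adjusted p = 9.39e-18). CXCR4 was at 9.45, 9.08 and 7.82 CPM and 26.0, 23.3 and 26.8 CPM, from 71 to 230 counts per library, and this chemokine receptor was 2.89-fold higher in OSCs (log2 fold change 1.52 ± 0.13, adjusted p = 8.55e-10). F2RL1, the protease-activated receptor, was at 167, 173 and 174 CPM in non-OSCs and 442, 408 and 426 CPM in OSCs (2.48-fold, adjusted p = 6.74e-16). SEMA4B was at 149, 169 and 162 CPM and 378, 379 and 396 CPM (2.40-fold, adjusted p = 4.69e-15). AKAP12 was at 742, 694 and 717 CPM and 1723, 1662 and 1701 CPM (2.36-fold, adjusted p = 3.07e-17). Even AKAP12, the smallest of the 8 differences, lay above 92.8% of the log2 fold changes of all genes tested.

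ANXA1 stood apart here too. It was at 240.4, 222 and 236 CPM in non-OSCs and 222, 220.4 and 225 CPM in OSCs, and the groups overlapped. Its log2 fold change was -0.07 ± 0.05 with an adjusted p of 0.235, and the exact permutation test gave p = 0.2. Over the alternative fits this value ranged from -0.10 to -0.03. The annexin thus was the one gene of the 9 with the reverse order of the shRNAs and the one with no detected difference between OSCs and non-OSCs.

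**Figure D4:**
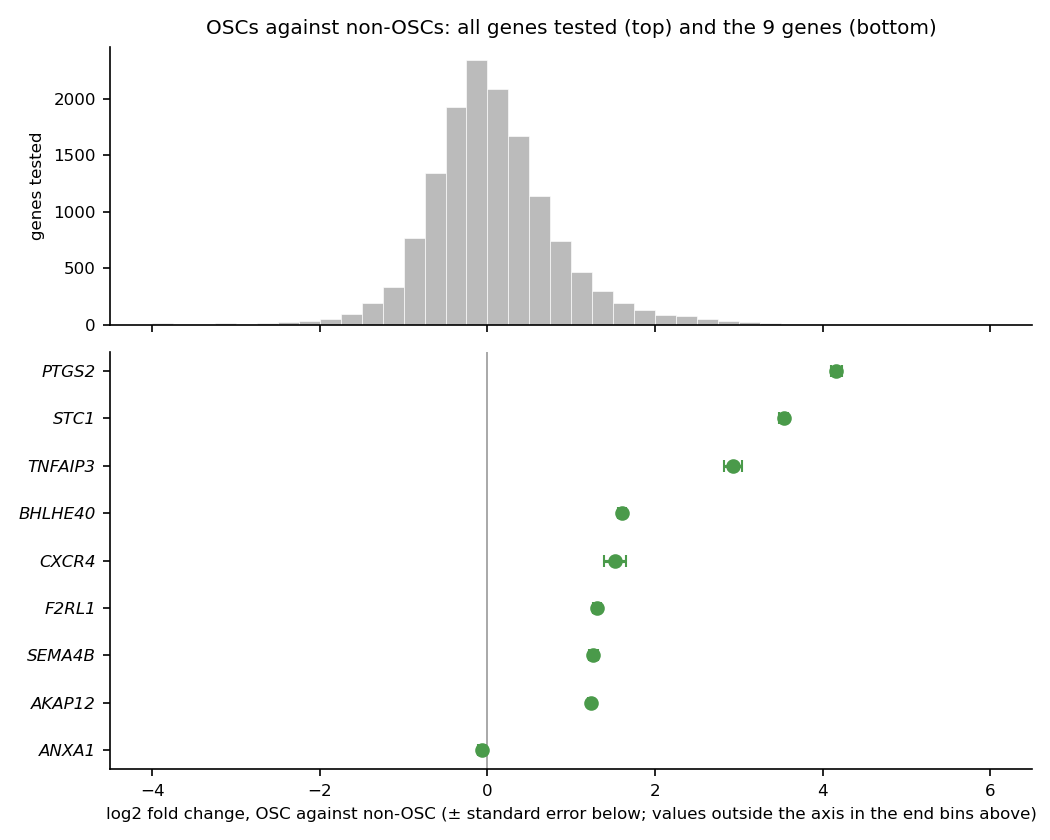
Distribution of the log2 fold change of OSCs against non-OSCs over all 14288 genes tested (top, number of genes per bin) and the values of the 9 genes with standard errors (bottom), on the same x axis. PTGS2, STC1 and TNFAIP3 lie in the far right tail, 5 genes lie between 1.24 and 1.60, and ANXA1 lies near 0.

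Since shCtrl cells were also grown as spheres, their levels can be set beside those of OSCs, with the limit that the tables were normalized separately and that shCtrl cells were infected. The shCtrl means lay between those of non-OSCs and OSCs for PTGS2 (167 CPM), TNFAIP3 (31.0), CXCR4 (9.39), AKAP12 (1053), BHLHE40 (249), STC1 (269.5) and SEMA4B (207). For CXCR4 the shCtrl libraries spanned the non-OSC libraries. F2RL1 (521 CPM with shCtrl against 425 in OSCs) and ANXA1 (298 against 222) were above both. No test was made of these differences.

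Genes that act with the 9, and their relatives by family, were examined in 6 lists, from which the 9 genes themselves were left out. The lists were not fully separate, as ACKR3 was counted both among receptor partners and among relatives. The list of NF-kB subunits, regulators, A20 partners and common target genes was the largest of the 6 lists. In OSCs 29 of its 32 genes were higher and 1 lower (background 32.4% and 31.5%), with a median log2 fold change of 0.71 beside -0.01 for all genes. IL6 was at 0.678 CPM in non-OSCs and 18.7 CPM in OSCs (log2 fold change 4.72 ± 0.28, adjusted p = 2.33e-12). The chemokine CXCL8 rose 9.31-fold to 82.5 CPM, BIRC3, an inhibitor of apoptosis, 6.54-fold to 43.4 CPM, and TRAF1 4.52-fold to 4.37 CPM. NFKBIB (0.05, adjusted p = 0.627) and the lowly expressed CCL2 (0.41, adjusted p = 0.389) did not pass the threshold.

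The same list was counted with each shRNA. With shPDK1#1, 2 of 31 genes were higher and 1 lower (background 1.62% and 1.44%). IER3 rose to 121% and BCL3 to 136% of the shCtrl mean, and SOD2, the mitochondrial superoxide dismutase, fell to 81.0%. The BCL3 call was lost without shCtrl replicate 1 and the SOD2 call without shCtrl replicate 2. BCL3 (29.1 CPM with shPDK1#2 against 23.9 with shCtrl) and SOD2 (46.1 against 67.2) lay on the same side of shCtrl with either shRNA. IER3 was at 104% of shCtrl with shPDK1#2 without passing the threshold (adjusted p = 0.194 in edgeR). With shPDK1#2, 1 gene of the list was higher (0 with DESeq2) and 11 were lower (8 with DESeq2), beside a background of 11.9% and 14.2%. Over the alternative fits the number called in either direction ranged from 8 to 14. CXCL8 fell to 43.4% of shCtrl (adjusted p = 2.89e-06), BIRC3 to 62.6% and CXCL1 to 48.2%, the last lost without shCtrl replicate 2. Between the shRNAs, 14 of 31 were lower with shPDK1#2 (background 9.78%) and 0 higher in edgeR (background 6.47%), with 1 higher at an unadjusted p of 0.05 and 0 in DESeq2. BIRC3 was at 22.9, 16.1 and 18.3 CPM with shPDK1#1, 12.6, 15.5 and 16.3 with shCtrl and 9.50, 9.20 and 9.06 with shPDK1#2, and its log2 fold change between the shRNAs was -1.03 ± 0.14 (adjusted p = 4.97e-06). The cytokine LIF (-0.72 ± 0.10, adjusted p = 4.77e-06) and the NF-kB subunit RELB (-0.55 ± 0.08, adjusted p = 7.46e-06) were lower with shPDK1#2 as well, whereas RNF11 and ITCH, partners of A20, were at -0.13 and -0.04 without passing the threshold.

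In the prostanoid list around PTGS2, 3 of 14 genes were higher in OSCs and 6 lower (background 32.4% and 31.5%), with a median log2 fold change of -0.20 beside -0.01 for all genes. The share called was 64.3%, close to the 63.9% of all genes tested. SLCO2A1, which carries prostaglandins into cells, fell to 12.2% of the non-OSC mean (adjusted p = 1.76e-12), and PTGES, which makes prostaglandin E2 downstream of PTGS2, fell to 0.20 of it (adjusted p = 1.56e-10). PLA2G4A, the phospholipase that releases arachidonic acid, rose to 279.8% and the receptor PTGFR to 355% of the non-OSC mean. With shPDK1#1, 1 of 15 genes was higher (background 1.62%) and 0 lower (background 1.44%, and 0 also at an unadjusted p of 0.05 and in DESeq2). With shPDK1#2, 3 were higher (background 11.9%) and 0 lower in edgeR (background 14.2%, with 1 lower at an unadjusted p of 0.05 and 0 in DESeq2). In DESeq2 2 were higher, and the call of PTGIS, 1 of the 3, was lost in 10 of 15 alternatives. PLA2G4A was at 35.9, 37.1 and 37.3 CPM with shCtrl, 60.3, 57.7 and 59.8 with shPDK1#1 and 47.5, 41.5 and 47.5 with shPDK1#2. Unlike PTGS2, it was above shCtrl with either shRNA (log2 fold changes 0.69 ± 0.07 and 0.31 ± 0.08, adjusted p = 1.28e-06 and 0.0033). Like PTGS2, it was lower with shPDK1#2 than with shPDK1#1, by a log2 fold change of -0.38 ± 0.07 (adjusted p = 0.000369 in edgeR). Between the shRNAs 1 gene of the list was higher with shPDK1#2 (0 with DESeq2) and 1 was lower (background 6.47% and 9.78%). HPGD, which inactivates prostaglandins, rose to 3.55 CPM with shPDK1#2 from 1.29 CPM (adjusted p = 0.00284). It had 31 to 45 counts per library with shPDK1#2 and 9 to 15 with shCtrl. The abundant PTGES3 was at 99.6% and 106% of shCtrl with shPDK1#1 and shPDK1#2 without passing the threshold.

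Ligands and partners of the receptors and of SEMA4B were counted next. In OSCs 13 of 18 were higher and 4 lower (background 32.4% and 31.5%), with a median log2 fold change of 0.56 beside -0.01 for all genes. The regulators of G protein signalling split, with RGS2 and RGS16 higher by log2 fold changes of 3.45 and 2.97 and RGS4 at 11.4% of the non-OSC mean. ACKR3, the scavenging receptor that shares CXCL12 with CXCR4, rose 5.72-fold to 31.2 CPM. With shPDK1#1, 1 gene was higher and 2 lower (background 1.62% and 1.44%), among them NRP2 at 84.3% of shCtrl (adjusted p = 0.00187), while the calls of PLXND1 and NRP1 were each lost without several single libraries. With shPDK1#2, 2 were higher and 8 lower (background 11.9% and 14.2%), a total of 10 that was 6 with DESeq2 or without shCtrl replicate 1 or shPDK1#2 replicate 2, and 5 without shCtrl replicate 2. RGS16 fell to 33.2% of shCtrl (adjusted p = 4.23e-11), ACKR3 to 45.8% (0.00161) and NRP2, a semaphorin co-receptor, to 50.1% (1.84e-14). NRP2 was at 257, 249.9 and 259 CPM with shCtrl, 218, 225 and 202 with shPDK1#1 and 130.4, 130.0 and 123 with shPDK1#2, so it was lower with either shRNA. Between the shRNAs 2 were higher and 5 lower with shPDK1#2 (background 6.47% and 9.78%), which became 0 and 5 with DESeq2 and 4 in all without shPDK1#1 replicate 3. Among those lower were RGS16 at -1.37 ± 0.11 and RGS2 at -0.82 ± 0.12 on the log2 scale (adjusted p = 2.21e-09 and 1.33e-05). RGS16 was at 26.2 CPM with shPDK1#1, 30.5 with shCtrl and 10.1 with shPDK1#2, so it lay below shCtrl with either shRNA. RGS2 had the order of the 8 genes without overlap, at 24.1, 18.8 and 13.7 CPM. It did not pass the threshold with shPDK1#1.

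Clock genes, on which BHLHE40 acts, were lower with shPDK1#2 in 7 of 15 and higher in 2 (background 14.2% and 11.9%). NR1D1 (REV-ERB alpha) was at 62.9, 67.3 and 61.2 CPM with shPDK1#1, 61.5, 57.7 and 56.2 with shCtrl and 35.9, 39.2 and 41.4 with shPDK1#2. Its groups with shPDK1#1 and shCtrl overlapped, and it fell to 66.4% of shCtrl with shPDK1#2 (adjusted p = 7.35e-07). CLOCK fell with either shRNA, to 76.0% (adjusted p = 0.0013) and 66.6% (4.8e-07) of shCtrl. With shPDK1#1, 1 gene was higher (NFIL3, 146% of shCtrl, adjusted p = 0.000396) and 2 lower (CLOCK and PER3, the latter at 72.5%, 0.00676), beside 1.62% and 1.44% of all genes. NFIL3 (30.7 CPM with shPDK1#2 against 24.7 with shCtrl) and PER3 (20.1 against 28.4) lay on the same side of shCtrl with either shRNA. PER1 had the order of BHLHE40 without overlap, at 92.5 CPM with shPDK1#1, 81.4 with shCtrl and 74.2 with shPDK1#2. Against shCtrl PER1 passed the threshold with neither shRNA (adjusted p = 0.114 and 0.128 in edgeR). Its log2 fold change between the shRNAs was -0.32 ± 0.06 (adjusted p = 0.000529). Between the shRNAs 4 clock genes were lower with shPDK1#2 (background 9.78%) and 0 higher in edgeR (background 6.47%, with 1 at an unadjusted p of 0.05 and 0 in DESeq2), led by NR1D1 at -0.72 ± 0.07 (adjusted p = 5.86e-08). In OSCs 8 of 14 clock genes were higher and 2 lower (background 32.4% and 31.5%), with PER1 4.02-fold, RORA 3.06-fold and NFIL3 2.96-fold higher.

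In the protein kinase A and cAMP list around AKAP12, 14 of 25 genes were higher in OSCs and 7 lower (background 32.4% and 31.5%), and the phosphodiesterase PDE4D rose 6.80-fold to 101 CPM (adjusted p = 9.54e-17). With shPDK1#1, 2 were higher (background 1.62%) and 0 lower in edgeR (background 1.44%, with 3 at an unadjusted p of 0.05 and 0 in DESeq2), with PDE4D at 138% of shCtrl (adjusted p = 0.000322) and the call of PRKACB lost in 11 of 15 alternatives. With shPDK1#2, 3 were higher and 7 lower (background 11.9% and 14.2%, and 6 in all without shCtrl replicate 2 or shPDK1#2 replicate 1), with the catalytic subunit PRKACB at 155% (adjusted p = 3.6e-09) and the phosphodiesterase PDE4B at 76.9% of shCtrl (8.75e-06). Between the shRNAs 2 were higher and 5 lower with shPDK1#2 (background 6.47% and 9.78%). The regulatory subunit PRKAR1A was at 0.12 and 0.04 on the log2 scale with shPDK1#1 and shPDK1#2, without passing the threshold. PDE4D stood above shCtrl with shPDK1#2 as well, at 54.0 CPM beside 43.5 CPM.

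Relatives of the 9 genes within their families were counted last. With shPDK1#1, 2 of 19 relatives were higher (background 1.62%) and 0 lower in edgeR (background 1.44%, and 0 also at an unadjusted p of 0.05 and in DESeq2). With shPDK1#2, 2 were higher and 5 lower (background 11.9% and 14.2%). STC2, the paralog of STC1, rose with either shRNA, to 166% and 154% of shCtrl (adjusted p = 5.63e-10 and 1.07e-09). It was at 143, 144 and 139.9 CPM with shPDK1#1, 84.7, 86.0 and 86.7 CPM with shCtrl and 126, 139 and 131 CPM with shPDK1#2, so its shCtrl libraries lay below all others. BHLHE41, the paralog of BHLHE40, rose with shPDK1#1 to 132% (adjusted p = 0.0013). With shPDK1#2 BHLHE41 was at 60.6 CPM beside 51.1 CPM with shCtrl, so unlike BHLHE40 it lay above shCtrl with either shRNA. Of the annexins, ANXA2 and ANXA5 were at -0.01 and -0.01 on the log2 scale with shPDK1#1 without passing the threshold, and ANXA7 fell to 74.8% with shPDK1#2 (adjusted p = 5.05e-05), where ANXA1 was above shCtrl. Between the shRNAs 1 relative was higher (0 with DESeq2) and 5 were lower with shPDK1#2 (background 6.47% and 9.78%), a total of 6 that was 2 without shPDK1#1 replicate 3 or shPDK1#2 replicate 3. In OSCs 13 of 19 were higher and 3 lower (background 32.4% and 31.5%), with BHLHE41 4.95-fold and TNFAIP8 3.14-fold higher and SEMA4D, a semaphorin of the same class as SEMA4B, at 43.3% of the non-OSC mean.

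**Figure D5:**
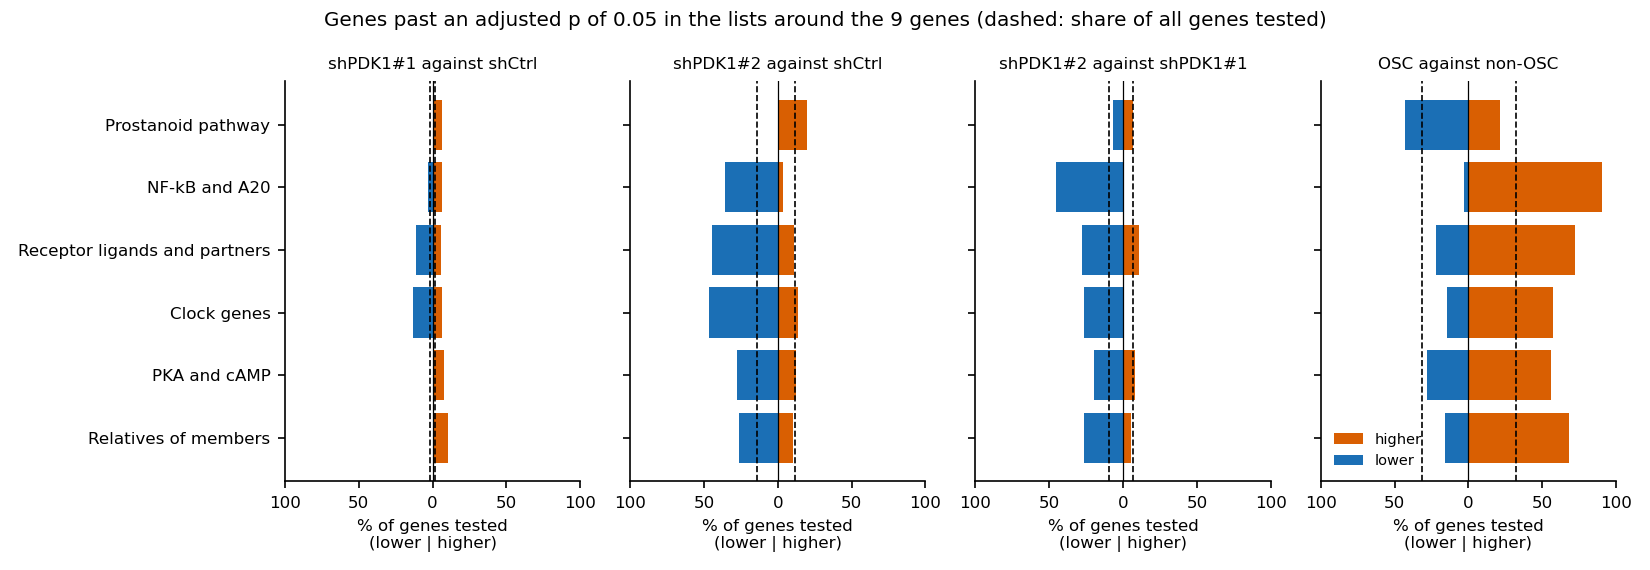
Share of the genes tested in each of 6 lists (y axis) that were higher (to the right) or lower (to the left) at an adjusted p under 0.05 in each comparison, in percent (x axis), with dashed lines at the share of all genes tested. In OSCs the bar of the NF-kB list reaches 29 of 32 genes on the higher side, and with shPDK1#2 against shPDK1#1 its 14 called genes all lie on the lower side.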

How the data were processed

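RNA of 143B cells was sequenced as paired-end reads after library preparation with a NEBNext Ultra kit. Per the submitters' processing notes, Trimmomatic 0.39, FastQC 0.12.1, STAR 2.7.11a and RSEM 1.3.3 were used with the GRCh38.p14 assembly. The values that the authors deposited are RSEM expected counts of 62700 genes in 2 tables, not normalized between libraries. The annotation they used and the strandedness are not given in the sources used here. All gene IDs matched GENCODE 44, which gave symbols, coordinates and exons. Columns named 2D and 3D were read as the adherent non-OSCs and the sphere OSCs, and 0 columns were left unmapped.

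Expected counts, of which 6.85% and 6.92% of values were not whole, were rounded. R 4.3.3 with edgeR 4.0.16 was used (TMM, filterByExpr by group, quasi-likelihood test, Benjamini-Hochberg adjustment over all genes, threshold 0.05). One fit held the 6 OSC and non-OSC libraries (14288 genes) and one the 9 knockdown libraries (14597 genes). DESeq2 1.42.0, other normalizations and filters, a replicate block, fits of the compared groups alone and the omission of each library were alternatives. Correlations used log2 CPM with a prior count of 2. Pairs of replicates differed by more than counting noise (chi-square per degree of freedom 1.95 to 3.70), so each library was counted once. The exact permutation test is two-sided. Plots were made with Python 3.11.15 and matplotlib 3.10.9, and the fits were tested on simulated counts.

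The 9 genes and the 6 lists were chosen with earlier results of these data known. From each list and comparison, at most 4 genes past the threshold with the largest fold change and at most 2 not past it with the highest CPM were eligible to be named. The genes most alike were the 5 with the highest r, of which 1 is not reported here. Targets of the shRNAs and protein sequences were not used here.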

Additional observations from a re-analysis of the deposited data

How the results depend on the processing

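Leaving out each library in turn gave 245 to 508 genes called with shPDK1#1 (446 with all libraries, 270 without shCtrl replicate 1, 281 without shCtrl replicate 2 and 245 without shPDK1#1 replicate 3). It gave 3032 to 4127 with shPDK1#2 (3810 with all), 1719 to 2325 between the shRNAs (2373) and 8502 to 8920 between OSCs and non-OSCs (9125). Genes called in opposite directions numbered 7 to 14 (14 with all, 9, 8 and 7 without shCtrl replicate 1, 2 and 3, and 7 without shPDK1#1 replicate 3), and 4 to 8 of the 9 genes were among them. In every other alternative (DESeq2, library size alone, no filter, at least 10 counts in every library, the compared groups only, the replicate block) 13 to 20 genes were called in opposite directions. Since the 9 genes were chosen on these contrasts, their calls there are no sign of stability. Library size alone shifted the median of all genes by at most 0.04 on the log2 scale. Replicate numbers did not pair the libraries (correlation of same-numbered deviations from -0.05 to 0.09 in the knockdown table and from -0.01 to 0.07 in the OSC table). With the replicate block 15 genes were called in opposite directions, and it moved no count of all genes by more than 1.5 times. Of the list counts, DESeq2 moved by more than 1.5 times the prostanoid count between the shRNAs (2 to 1, also with at least 10 counts in every library), the receptor partner count with shPDK1#2 (10 to 6) and the protein kinase A count with shPDK1#1 (2 to 1). The receptor partner count with shPDK1#1 was 1 in place of 3 without shCtrl replicate 3, shPDK1#1 replicate 1 or shPDK1#1 replicate 3. The causes were not tested. Depth limits CXCR4 most, with 45 counts in its lowest library.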

Other observations

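Beside the 9 genes, others passed the threshold with both shRNAs in opposite directions, and 4 of them are named here after their values were seen. MMP10, a secreted metalloproteinase, was at 108, 107 and 113 CPM with shPDK1#1, 86.5, 92.7 and 95.2 CPM with shCtrl and 33.0, 31.7 and 34.6 CPM with shPDK1#2. It thus stood much further below shCtrl with shPDK1#2 than above it with shPDK1#1. INSIG1, which holds back cholesterol synthesis, was at 124, 124 and 134 CPM with shPDK1#1, 108, 108 and 105 CPM with shCtrl and 97.7, 85.2 and 89.5 CPM with shPDK1#2. C15orf62 was at 19.4 ± 1.76 CPM with shPDK1#1, 14.3 ± 1.32 with shCtrl and 10.6 ± 0.839 with shPDK1#2 (SD, n = 3). PFKFB3, described above as close to the 8 genes, was another.

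These 4 were also higher in OSCs than in non-OSCs in edgeR's quasi-likelihood test, where 32.4% of all genes were higher. PFKFB3 differed by 1.26 ± 0.05 (SE) on the log2 scale (adjusted p = 1.1e-15), INSIG1 by 1.23 ± 0.06 (1.21e-13) and C15orf62 by 1.85 ± 0.17 (3.63e-09). MMP10 was at 1.16, 0.328 and 0.331 CPM in non-OSCs and 242, 221 and 205 CPM in OSCs (adjusted p = 1.13e-20). The 5 genes closest to ANXA1 over the knockdown libraries were all lower in OSCs, as were 31.5% of all genes, with CDCA7 at 45.9% (adjusted p = 1.65e-11) and CDC45 at 49.8% (2.75e-08) of the non-OSC mean, whereas ANXA1 itself was at 95.5% (0.235). Of these, the call of ZSCAN12 was lost without OSC replicate 3. Genes close to the average of the 8 were mixed, with KDM5B higher in OSCs by 1.32 ± 0.06 on the log2 scale (adjusted p = 3.26e-14), FAM20B lower at -0.22 ± 0.06 (0.00469) and EXTL3 at 0.14 ± 0.06 (0.0371), a call lost with DESeq2 and without non-OSC replicate 1, non-OSC replicate 2 or OSC replicate 3.

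CXCL12, the ligand of CXCR4, was named after its values were seen. It was lower in OSCs, at 1.81 CPM against 4.36 CPM in non-OSCs (log2 fold change -1.27 ± 0.30, adjusted p = 0.000764 in edgeR), where CXCR4 was higher. With shPDK1#1 and shPDK1#2 it was at 1.25 and 1.12 CPM beside 1.46 CPM with shCtrl, and the groups overlapped. All of these levels are low and rest on few counts per library. The call of CXCL12 in OSCs was not followed over the alternative fits.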
